A study of Mus musculus with 36 samples.

Results

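The 10 genes described here, Timp1, C3, Il24, Pdpn, Aqp3, Ramp3, Pdzk1ip1, Gcnt2, Tgm2 and Alpk2, were picked out of 20817 listed genes by their response to DFMO (difluoromethylornithine), which differed strongly between CD4 T cell lineages. The files write them in capitals (TIMP1, C3, IL24, PDPN, AQP3, RAMP3, PDZK1IP1, GCNT2, TGM2, ALPK2). The genes were chosen by responses measured in these same libraries, so those responses are given below as descriptions, without tests. Naive CD4 T cells were sorted from the spleens of 3 wild-type C57BL/6 mice, activated through CD3 and CD28, cultured for 68 h, sorted for live cells and measured by full-length RNA sequencing. All 6 groups share this activation, and each holds 1 library per animal, so n = 3 throughout. Vehicle Th17p cells (pathogenic Th17) were cultured with IL-6 at 25 ng/ml, IL-1b at 20 ng/ml and IL-23 at 20 ng/ml. Vehicle Th17n cells (non-pathogenic Th17) received IL-6 at the same dose and TGF-beta 1 at 2 ng/ml, and vehicle iTreg cells (induced regulatory T) received that TGF-beta 1 alone. The other 3 groups were the same cultures with 100 µM DFMO. These are cells differentiated in a dish from naive cells, with live cells as the final sort. In bulk RNA, fewer cells expressing a gene and less RNA per cell cannot be told apart.

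DFMO blocks ornithine decarboxylase, the enzyme that commits ornithine to the polyamines putrescine, spermidine and spermine. Polyamines bind nucleic acids, support growth, and supply the group that activates the translation factor eIF5A. Th17 cells are inflammatory helper cells known for IL-17, and regulatory T cells are suppressive cells that depend on Foxp3. TGF-beta takes part in the differentiation of both, and IL-6 turns the outcome towards Th17. The 10 genes do not form 1 pathway. They encode secreted proteins (Timp1, C3, Il24), proteins of the cell surface and membrane (Pdpn, Aqp3, Ramp3, Pdzk1ip1), and enzymes (Gcnt2, Tgm2, Alpk2).

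The label of opposed responses held for 9 of the 10 genes. Between Th17p and iTreg cells, the DFMO response had opposite signs for all but Tgm2, and it was opposite within each of the 3 animals for 8 genes. For comparison, 5.61% of the 11526 genes tested were opposite in every animal in that pair, from which nothing is read since the responses chose the genes. Tgm2 was lower with DFMO in all 3 lineages and differed in the size of the response alone. Alpk2 was opposite in sign between the group means, but 1 of its 3 iTreg pairs went the other way. Between Th17n and iTreg cells 4 genes had opposite signs, each in every animal (5.81% of all genes tested). Between the Th17 lineages 5 had opposite signs, 4 of them in every animal (3.13% of all genes tested).

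Promoter sequence is shown for genes with contrasting patterns. Pdpn and C3 were lower with DFMO in Th17p and higher in iTreg cells, Ramp3 ran the other way, and Timp1 was the most abundant. Each line holds the 250 bases before the annotated start, 5′ to 3′ on the gene's strand, from RefSeq on GRCm38.p6. Capitals mark a match to a motif that was searched. The regions are chr4:143299565-143299814 (Pdpn, minus strand), chr17:57228137-57228386 (C3, minus strand), chrX:20869916-20870165 (Timp1, plus strand) and chr11:6658283-6658532 (Ramp3, plus strand).
Pdpn: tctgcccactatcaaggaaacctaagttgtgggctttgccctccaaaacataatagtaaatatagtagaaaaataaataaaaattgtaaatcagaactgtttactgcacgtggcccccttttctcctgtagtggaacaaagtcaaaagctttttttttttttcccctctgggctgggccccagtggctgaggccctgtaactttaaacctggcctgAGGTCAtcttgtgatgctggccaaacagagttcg
C3: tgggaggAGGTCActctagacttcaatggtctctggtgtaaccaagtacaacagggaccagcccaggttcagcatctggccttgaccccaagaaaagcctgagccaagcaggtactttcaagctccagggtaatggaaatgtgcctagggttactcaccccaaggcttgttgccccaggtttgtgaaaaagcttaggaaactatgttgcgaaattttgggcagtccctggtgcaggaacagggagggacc
Timp1: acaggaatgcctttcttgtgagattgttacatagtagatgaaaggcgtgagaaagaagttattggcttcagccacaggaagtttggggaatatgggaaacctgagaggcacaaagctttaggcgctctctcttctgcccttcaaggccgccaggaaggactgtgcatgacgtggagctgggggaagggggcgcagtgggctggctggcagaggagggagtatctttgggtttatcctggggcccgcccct
Ramp3: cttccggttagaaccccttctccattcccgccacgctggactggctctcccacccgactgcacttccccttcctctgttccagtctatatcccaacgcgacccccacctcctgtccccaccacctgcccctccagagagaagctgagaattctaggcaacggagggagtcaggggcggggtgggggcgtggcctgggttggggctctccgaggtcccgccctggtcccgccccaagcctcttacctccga

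Promoters were given for 7 of the 10 genes, with 9 start sites in all, and Il24, Tgm2 and Alpk2 were not matched. The search covered both strands for the STAT palindrome TTCNNNGAA, the AP-1 palindrome TGANTCA, the ROR site AGGTCA and the SMAD motif CAGACA. STAT factors act downstream of IL-6 and IL-23, ROR factors include the Th17 regulator RORgt, and SMAD factors act downstream of TGF-beta. Pdpn holds AGGTCA with its first base 34 bases before the start, and C3 holds it 243 bases before. The second of 3 Gcnt2 start sites (chr13:40886508-40886757) holds TTCTGTGAA from 227 bases before. The other 6 start sites, among them those of Timp1 and Ramp3, hold none of the 4 motifs in this window. Among 32817 promoters of the same length, 7.01% hold the STAT letters, 6.75% those of AP-1, 14% the ROR site and 17.1% the SMAD motif. A match is a description of letters and not a binding site. GC content was 65.2% for Ramp3 and 43.2% for Pdpn, against a median of 52.4% over all promoters.

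Depth ran from 8307662 to 13986943 estimated counts per library. Levels are given as CPM, counts scaled to a common library size. Summed markers of CD4 T cells (Cd3d, Cd4, Lck and 4 others) lay between 2263 and 3045 CPM in every library. Of the defining genes, Il17a averaged 412 CPM in vehicle Th17p, 214 CPM in vehicle Th17n and 0.0717 CPM in vehicle iTreg cells, and Foxp3 averaged 435 CPM in vehicle iTreg, 11.4 CPM in vehicle Th17n and 0.784 CPM in vehicle Th17p cells. With DFMO, Il17a averaged 17.7 CPM in Th17p cells against 112 CPM in the Th17n lineage, and Foxp3 averaged 97.2 CPM in Th17n cells. The 8 Th17 markers summed to at least 582 CPM in each Th17 library and at most 187 CPM in each iTreg library, but among them Ccr6 was higher in vehicle iTreg (62.1 CPM) than in vehicle Th17p cells (12.98 CPM). The 8 Treg markers did not set iTreg cells apart: their sum averaged 3519 CPM in vehicle Th17n, 2735 CPM in vehicle iTreg and 2663 CPM in vehicle Th17p cells. Ctla4, Il2ra and Tnfrsf18 were each higher in both vehicle Th17 groups than in vehicle iTreg cells, while Foxp3, Ikzf2, Lrrc32 and Nrp1 were highest in vehicle iTreg cells among the vehicle groups. Epithelial markers (6 genes) summed to at most 2.49 CPM in any library. The library sizes carry TMM factors, which equalise the bulk of genes between libraries. Values within a group are listed in the order of animals 1, 2 and 3, and means carry the standard deviation (SD) over the 3 animals. Responses are log2 fold changes of DFMO against vehicle with their standard error (SE) from 1 edgeR fit.

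**Figure D1:**
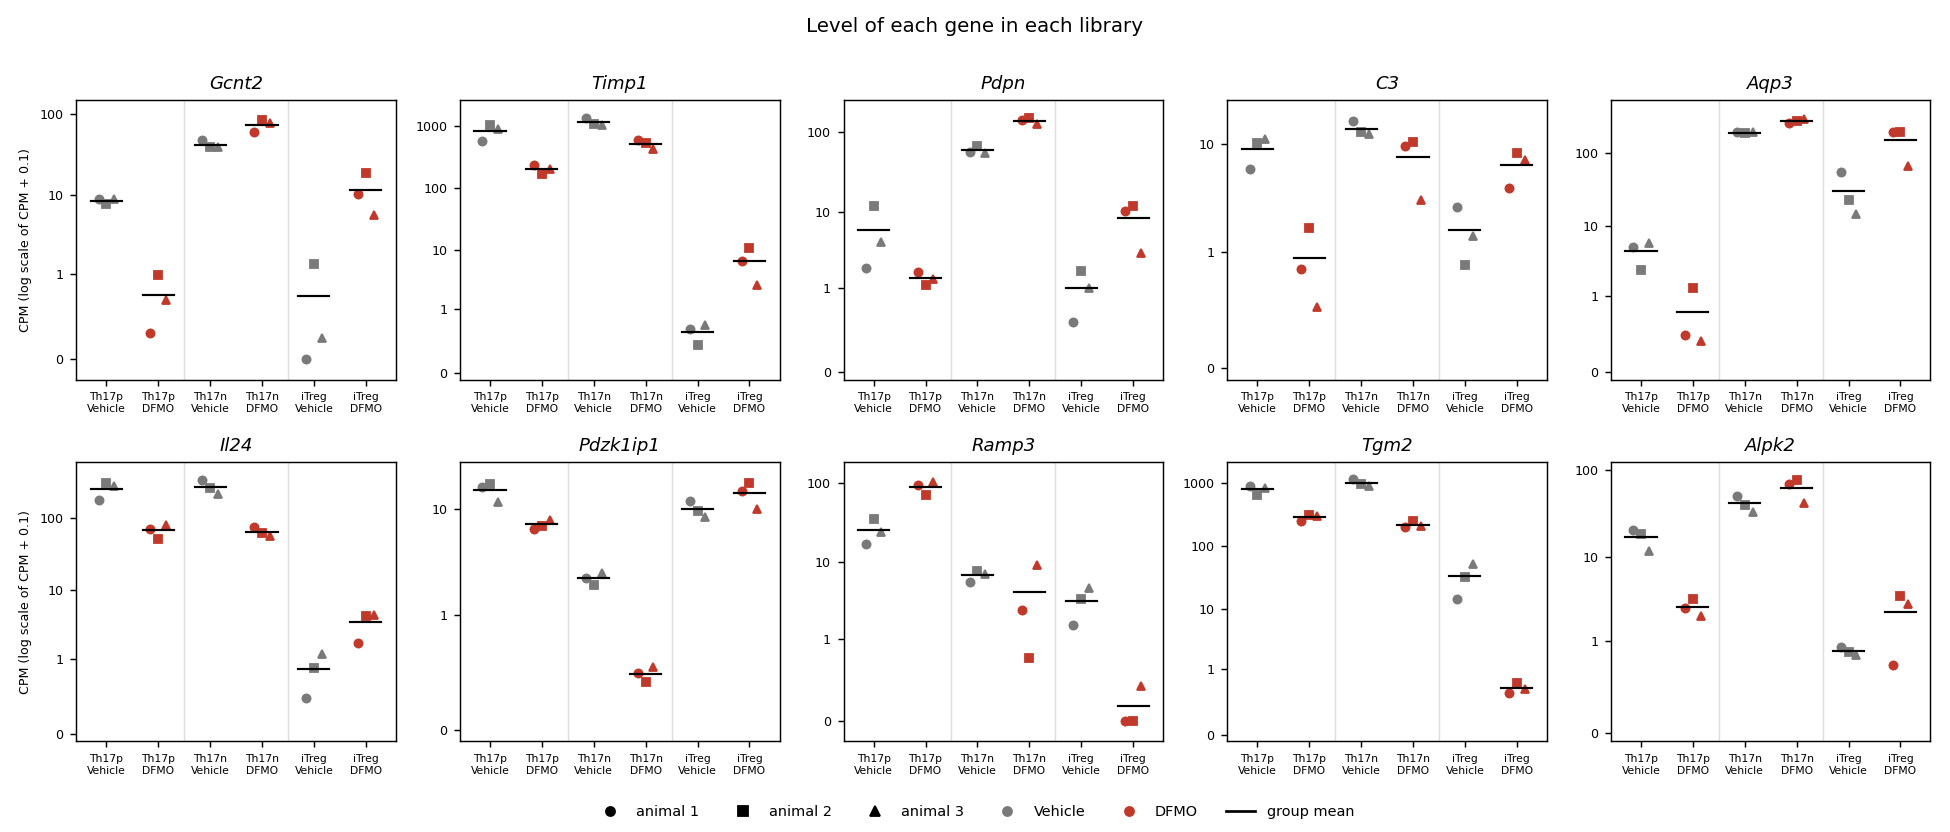
CPM of each of the 10 genes (log scale of CPM + 0.1) in the 18 libraries, with grey for vehicle, red for DFMO, a symbol per animal and a bar for the group mean. In Th17p cells the vehicle and DFMO points of all 10 genes are separate, with Ramp3 alone higher under DFMO.

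Timp1 encodes a secreted inhibitor of matrix metalloproteinases (chrX:20870166-20874735, plus strand, in GENCODE M21 on GRCm38, as are all gene positions here). It was the most abundant of the 10 genes per length, with 1440 ± 149 TPM (a length-scaled share of transcripts, SD) in vehicle Th17n cells. Vehicle Th17p libraries held 577, 1059 and 910.4 CPM, and DFMO Th17p libraries 238, 166 and 203 CPM. Vehicle Th17n libraries held 1365, 1097 and 1035 CPM and their DFMO counterparts 595, 535 and 423 CPM. In iTreg cells, 0.430, 0.184 and 0.506 CPM with vehicle stood against 6.58, 10.5 and 2.62 CPM with DFMO. The groups did not overlap in any lineage: both Th17 lineages were lower with DFMO and iTreg cells were higher, from near absence. The responses were -2.07 ± 0.31, -1.17 ± 0.30 and 4.10 ± 0.74 (SE) in Th17p, Th17n and iTreg cells. Even so, DFMO iTreg cells stayed at 6.58 ± 3.96 CPM (SD), below every Th17 library. Timp1 lies within Syn1, a synapsin gene on the other strand. Whether the counting used strand is not given in the sources used here. In iTreg cells Syn1 averaged 1.49 CPM with vehicle and 2.61 CPM with DFMO, against 0.373 and 6.58 CPM for Timp1. The highest Syn1 mean, 13.2 CPM, was in DFMO Th17n cells. The share of Syn1 reads in the Timp1 counts was not tested.

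C3 encodes the central complement component (chr17:57203970-57228136, minus strand), which is cleaved into the anaphylatoxin C3a and the opsonin C3b. It was low throughout. In Th17p cells the vehicle libraries held 5.94, 10.3 and 11.02 CPM, and those with DFMO 0.670, 1.69 and 0.255 CPM. Vehicle Th17n libraries held 16.2, 12.9 and 12.3 CPM against 9.56, 10.5 and 3.08 CPM with DFMO. In iTreg cells, 2.69, 0.736 and 1.43 CPM with vehicle stood against 3.98, 8.38 and 7.16 CPM with DFMO. No DFMO range touched its vehicle range, and the direction was the same in all 3 animals of each lineage. The responses were -3.30 ± 0.57, -0.84 ± 0.47 and 2.04 ± 0.54 for Th17p, Th17n and iTreg (SE). Thus with DFMO the order of C3 between Th17p and iTreg cells was the inverse of that with vehicle.

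Il24 encodes a cytokine of the IL-10 family (chr1:130882074-130887454, minus strand) that signals through the IL-20 receptors. In Th17p cells the vehicle libraries held 179, 311 and 279.6 CPM, and DFMO libraries 71.6, 51.9 and 79.3 CPM. In Th17n cells, 338, 263 and 218 CPM with vehicle stood against 74.8, 62.6 and 55.8 CPM with DFMO. In iTreg cells, 0.215, 0.736 and 1.18 CPM stood against 1.74, 4.32 and 4.45 CPM. The Th17 lineages overlapped each other in both treatments, and the 3 animals moved together within every lineage. The responses were -1.93 ± 0.27, -2.08 ± 0.27 and 2.27 ± 0.58 in Th17p, Th17n and iTreg cells (SE). The iTreg response rests on few reads, with 2, 8 and 14 counts in the vehicle libraries.

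Pdpn encodes podoplanin (chr4:143267431-143299564, minus strand), a sialylated membrane glycoprotein that binds the platelet receptor CLEC-2 and is found on lymph node stroma, lymphatic endothelium and Th17 cells. Th17p cells with vehicle had 1.87, 11.6 and 4.13 CPM, and DFMO libraries 1.68, 1.13 and 1.36 CPM. Vehicle Th17n libraries held 55.8, 67.6 and 54.2 CPM against 143, 148 and 127 CPM with DFMO. In iTreg cells, 0.323, 1.75 and 1.01 CPM stood against 10.1, 11.7 and 2.97 CPM. The ranges were separate in each lineage, though in Th17p cells the first animal differed by little (1.87 against 1.68 CPM) and the second by far more. The responses were -2.08 ± 0.69, 1.24 ± 0.44 and 2.94 ± 0.70 in Th17p, Th17n and iTreg cells (SE). Pdpn was thus opposed between Th17p cells and the pair of lineages grown with TGF-beta 1.

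Markers of fibroblasts and stroma, cells that also express Pdpn and Timp1, moved with DFMO in Th17p cells. The 9 listed markers summed to between 288 and 364 CPM in vehicle and between 123 and 185 CPM in DFMO Th17p libraries. Of these sums 97.1% and 97.9% was Lum, the gene of the proteoglycan lumican, while Col1a2, Col3a1 and Ccl19 were at 0 counts in all 6 Th17p libraries. The other 5 were detected at low levels. Dcn averaged 4.42 CPM with vehicle and 0.383 CPM with DFMO, Col1a1 1.09 and 0.447 CPM, and Pdgfrb 0.926 and 0.427 CPM. Fbln1 averaged 2.83 and 1.91 CPM, and its libraries overlapped (1.10 to 5.88 against 1.12 to 2.75 CPM). Pdgfra was at the floor in both treatments, with means of 0.0306 and 0.0284 CPM and at most 0.0919 CPM in any Th17p library, so no change is read from it. In Th17n libraries the sums were 8.85 to 14.4 CPM with vehicle and 2.65 to 5.89 CPM with DFMO, and in iTreg libraries 12.8 to 13.9 CPM and 5.41 to 6.58 CPM. Endothelial markers fell between 3.09 and 39.96 CPM, and Pecam1, which T cells also express, made up at least 96.5% of each group's sum. The part of such cells in the responses was not tested.

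Aqp3 encodes aquaglyceroporin 3 (chr4:41092722-41098183, minus strand), a channel for water, glycerol and hydrogen peroxide. Th17p cells with vehicle had 5.06, 2.44 and 5.70 CPM, and DFMO libraries 0.223, 1.34 and 0.170 CPM, which are 2, 19 and 2 counts. In Th17n cells, 192, 186 and 194 CPM with vehicle stood against 261, 273 and 295 CPM with DFMO. In iTreg cells, 54.3, 22.8 and 14.5 CPM stood against 192, 193 and 65.4 CPM. Vehicle and DFMO libraries were apart in each lineage, with Th17p lower and the other 2 lineages higher under DFMO. The responses were -2.76 ± 0.99, 0.54 ± 0.45 and 2.31 ± 0.49 in Th17p, Th17n and iTreg cells (SE). Without animal 2 the Th17p response was -4.72. Aqp3 had fractional counts in 16 of the 36 runs, so some of its reads were shared between genes by the estimate.

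Ramp3 encodes receptor activity-modifying protein 3 (chr11:6658521-6677475, plus strand), which pairs with the calcitonin receptor-like receptor to form an adrenomedullin receptor. It was the only one of the 10 genes that was higher with DFMO in Th17p cells. Of the Th17p libraries, those with vehicle held 16.6, 35.0 and 23.9 CPM against 91.8, 69.6 and 102 CPM with DFMO. In Th17n cells, 5.49, 7.76 and 6.92 CPM stood against 2.42, 0.530 and 9.24 CPM, so the DFMO libraries spread around the vehicle ones. In iTreg cells, 1.51, 3.31 and 4.63 CPM with vehicle stood against 0 CPM, 0 CPM and 0.175 CPM with DFMO. Over the group that is 2 counts against 105, a ratio of 51.7-fold with a 95% counting interval from 14.0 to 432 that covers counting error only. The responses in Th17p and Th17n cells were 1.80 ± 0.54 and -0.71 ± 0.65 (SE).

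Pdzk1ip1 encodes MAP17 (chr4:115088708-115093899, plus strand), a small membrane protein that binds the scaffold PDZK1. Its levels were the opposite of those of Pdpn and Aqp3 between the Th17 lineages. Th17p libraries with vehicle held 15.9, 17.0 and 11.6 CPM against 6.59, 7.06 and 8.002 CPM with DFMO. In Th17n cells, 2.32, 1.97 and 2.54 CPM stood against 0.230, 0.177 and 0.272 CPM, the latter from 2, 2 and 3 counts. In iTreg cells, 11.8, 9.65 and 8.43 CPM stood against 14.5, 17.3 and 10.0 CPM, and these ranges overlapped. The responses were -1.03 ± 0.24, -3.27 ± 0.41 and 0.49 ± 0.23 in Th17p, Th17n and iTreg cells (SE). The iTreg value is the smallest response in that lineage among the 10 genes.

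Gcnt2 encodes the branching enzyme that makes the blood group I antigen from linear poly-N-acetyllactosamine chains (chr13:40859754-40960892, plus strand). It had the widest gap between lineages, with responses of -3.90 ± 0.67 in Th17p and 4.53 ± 0.68 in iTreg cells (SE). Vehicle Th17p libraries held 8.92, 7.90 and 8.91 CPM against 0.112, 0.988 and 0.426 CPM with DFMO, the latter from 1, 14 and 5 counts. Vehicle iTreg libraries held 0 CPM, 1.38 CPM and 0.0843 CPM against 10.4, 19.0 and 5.68 CPM with DFMO. The 2 lineages therefore traded places at about the same levels. Th17n cells were higher than either in both treatments, with 47.0, 39.1 and 39.1 CPM under vehicle and 59.8, 82.7 and 76.5 CPM under DFMO (0.81 ± 0.41, SE). Without animal 2, whose vehicle iTreg library holds 15 of the 16 counts in that group, the iTreg response was 7.06. Gcnt2 had fractional counts in 17 of 36 runs and overlaps the microRNA gene Mir5124a on its own strand.

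Tgm2 encodes transglutaminase 2 (chr2:158116402-158146436, minus strand), which cross-links glutamine side chains to lysines or to amines, polyamines among them. It was abundant in Th17 cells and lower with DFMO in every animal and lineage. In Th17p cells, vehicle libraries held 902, 648 and 845 CPM against 246, 306 and 302 CPM with DFMO. In Th17n cells, 1157, 959.6 and 893 CPM stood against 202, 248 and 205 CPM. In iTreg cells, 14.4, 32.3 and 52.4 CPM stood against 0.373, 0.581 and 0.437 CPM, which are 3, 7 and 5 counts. The responses were -1.49 ± 0.30, -2.20 ± 0.31 and -6.10 ± 0.58 in Th17p, Th17n and iTreg cells (SE). The lineages thus differed in depth of the decrease and not in its sign. Part of Tgm2 overlaps Rprd1b on the other strand, which averaged between 49.5 and 87.8 CPM over the groups and so was above Tgm2 in both iTreg groups.

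Alpk2 encodes an atypical protein kinase of the alpha kinase family (chr18:65265529-65394066, minus strand). Vehicle Th17p libraries held 20.6, 18.2 and 11.8 CPM against 2.57, 3.25 and 2.04 CPM with DFMO. In Th17n cells, 50.9, 40.1 and 33.0 CPM stood against 69.6, 76.6 and 42.3 CPM, and the ranges overlapped, although the DFMO library was the higher of the pair in each animal. In iTreg cells, 0.861, 0.736 and 0.674 CPM stood against 0.497, 3.57 and 2.88 CPM. There the first animal was lower with DFMO and the others were higher. The responses were -2.66 ± 0.38, 0.61 ± 0.31 and 1.69 ± 0.55 in Th17p, Th17n and iTreg cells (SE).

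**Figure D2:**
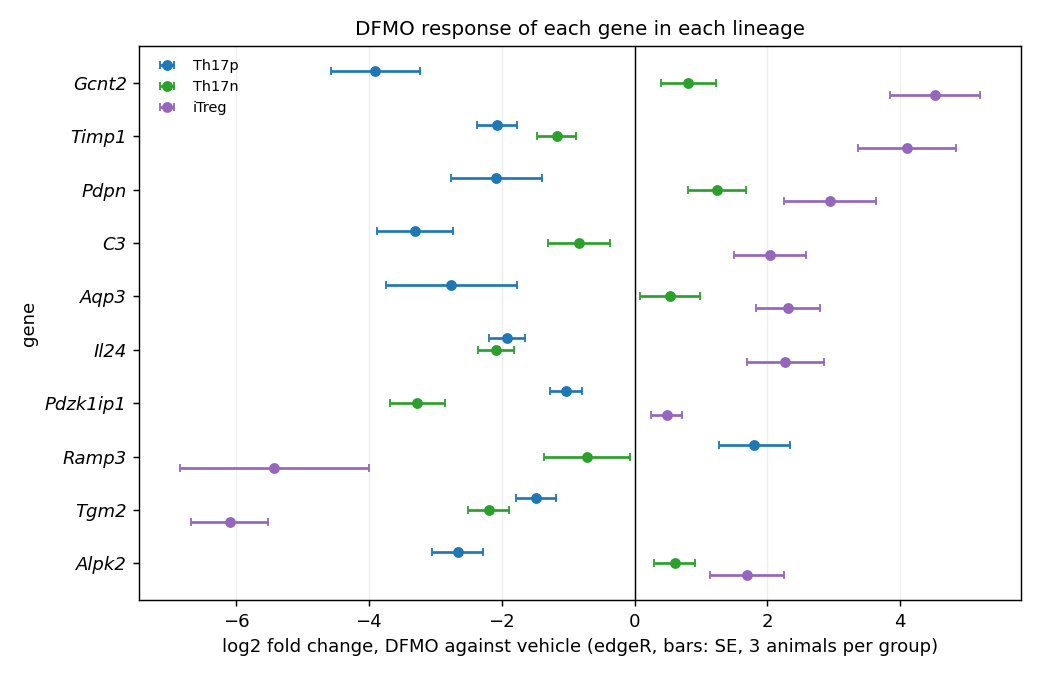
Log2 fold change of DFMO against vehicle for each of the 10 genes in Th17p (blue), Th17n (green) and iTreg cells (purple), with bars for the SE of the edgeR fit (n = 3 animals per group). Th17p and iTreg points lie on opposite sides of 0 for all genes but Tgm2.

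Over the 10 genes the median response was -2.07, -0.78 and 2.15 for Th17p, Th17n and iTreg, against 0.00, -0.02 and -0.04 over all genes tested. DFMO and vehicle libraries did not overlap for all 10 genes in Th17p cells and for 8 in each of the other lineages. Over all genes tested, 47.8%, 56.3% and 45.1% did not overlap in those lineages, and nothing is read from these counts since the responses chose the genes. Among the genes with a higher mean under DFMO in iTreg cells, the animal with the lowest DFMO library varied. It was the third for Gcnt2, Timp1, Pdpn, Aqp3 and Pdzk1ip1, and the first for C3, Il24 and Alpk2. All 10 genes passed the filter on low counts, which asks for about 0.972 CPM in enough libraries, but Gcnt2, C3, Ramp3 and Alpk2 had all 3 libraries over that level in 4 of the 6 groups and the other genes in 5. Of 50 neighbouring pairs in the order of group means, 21 overlapped in their libraries. No share over all genes stands beside this count, and nothing is read from it since the responses chose the genes.

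Scaling matters for iTreg cells. Without scaling factors the median response of all genes there moved from -0.04 to -0.21, and on log2(TPM + 1) to -0.19. The split of genes called at an edgeR adjusted p under 0.05 went from 2112 higher and 2217 lower to 1284 and 3286 without scaling factors. Ramp3 in Th17n cells left aside, no response of the 10 genes in any lineage changed sign under these settings or in any other alternative tried. The sign of that Ramp3 response is not settled, as its animals were at -1.12, -3.46 and 0.41 (log2 of DFMO against vehicle). Pdzk1ip1 in iTreg cells was lowest with run 1 alone, at 0.23, and 0.32 without scaling factors.

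The lineages were then compared by their means, each averaged over vehicle and DFMO on the log2 scale, with edgeR over all 11526 genes. The average gives both treatments equal weight, and it uses the libraries whose responses picked the genes. It is not independent of those responses where a group has few counts, and a passed test can rest on 1 treatment. Levels within each treatment are therefore repeated below for part of the genes, and stand above for all. Between the Th17 lineages, 6 of the 10 genes were higher in Th17n cells, 2 were lower and 2 did not pass. Of all genes tested 26.7% passed, 12.7% higher and 14% lower. Aqp3 was higher by 7.06 ± 0.48 (SE, edgeR adjusted p = 2.5e-07), Pdpn by 5.01 ± 0.41 and Gcnt2 by 4.63 ± 0.39. The DFMO Th17p libraries hold 23 counts of Aqp3, 47 of Pdpn and 20 of Gcnt2 in all, so these values are not independent of the choice. With vehicle alone, Aqp3 averaged 191 CPM in Th17n and 4.40 CPM in Th17p cells, Pdpn 59.2 and 5.88 CPM, and Gcnt2 41.8 and 8.58 CPM. Alpk2 was higher by 2.93 ± 0.25 and C3 by 1.83 ± 0.37 (edgeR adjusted p = 0.001). Both differences were wider with DFMO. C3 averaged 13.8 CPM in Th17n and 9.10 CPM in Th17p cells with vehicle, and 7.72 and 0.873 CPM with DFMO. Alpk2 averaged 41.3 and 16.9 CPM with vehicle, and 62.9 and 2.62 CPM with DFMO. Timp1 was higher by 0.91 ± 0.21 (edgeR adjusted p = 0.0059), a call that was lost without animal 1 (0.75, adjusted p = 0.13) and on log2(TPM + 0.1) (0.83, adjusted p = 0.059), and its vehicle libraries overlapped between the 2 lineages. Pdzk1ip1 was at -3.81 ± 0.23 (edgeR adjusted p = 6.1e-11) and Ramp3 was at -3.15 ± 0.43 (edgeR adjusted p = 0.0001). The Pdzk1ip1 average takes in its 7 counts in DFMO Th17n cells. With vehicle alone Pdzk1ip1 averaged 2.28 ± 0.289 CPM in Th17n and 14.8 ± 2.85 CPM in Th17p cells (SD). Il24 and Tgm2 were at 0.01 ± 0.19 and -0.03 ± 0.21 (edgeR adjusted p = 0.98 and 0.95).

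Against Th17n cells, iTreg cells were lower for 9 of the 10 genes and higher for 1. Of all genes tested 39.7% passed, 19.4% higher and 20.3% lower. Timp1 was at -8.92 ± 0.34, Tgm2 at -6.86 ± 0.32, Il24 at -6.31 ± 0.28 and Alpk2 at -5.22 ± 0.30 (SE). The DFMO iTreg libraries hold 15 counts of Tgm2 in all, so its p is not independent of the choice. With vehicle alone Tgm2 averaged 33.0 ± 19.0 CPM in iTreg and 1003 ± 137 CPM in Th17n cells (SD). Pdpn was at -4.94 ± 0.41 and Gcnt2 at -4.49 ± 0.40, and Aqp3 and C3 showed smaller differences of -1.77 ± 0.33 and -1.67 ± 0.36. Gcnt2 averaged 0.488 CPM in iTreg and 41.8 CPM in Th17n cells with vehicle, and 11.7 and 73.0 CPM with DFMO. Pdzk1ip1 alone was higher in iTreg cells, by 3.997 ± 0.23, an average that takes in its 7 counts in DFMO Th17n cells. With vehicle alone Pdzk1ip1 averaged 9.97 ± 1.73 CPM in iTreg and 2.28 ± 0.289 CPM in Th17n cells (SD). Over the 10 genes the edgeR adjusted p was at most 0.0033, the value of Ramp3 (-3.42 ± 0.78), whose call was lost without animal 1 (-3.26, adjusted p = 0.059). Since the DFMO iTreg libraries hold 2 counts of Ramp3 in all, this average takes in the low level for which the gene was picked, and its p is not independent of the choice. With vehicle alone Ramp3 averaged 3.15 ± 1.57 CPM in iTreg and 6.72 ± 1.15 CPM in Th17n cells (SD), without overlap. C3 overlapped between the 2 lineages with DFMO, at 3.98 to 8.38 CPM in iTreg and 3.08 to 10.5 CPM in Th17n libraries.

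Against Th17p cells, iTreg cells were lower for 5 genes, higher for 1 and not called for 4. Of all genes tested 42.3% passed, 20% higher and 22.4% lower. Aqp3 was higher by 5.29 ± 0.49 (SE, edgeR adjusted p = 1.5e-06). Timp1 (-8.02 ± 0.34), Tgm2 (-6.89 ± 0.32), Ramp3 (-6.57 ± 0.62), Il24 (-6.30 ± 0.28) and Alpk2 (-2.29 ± 0.33) were lower, with an edgeR adjusted p of at most 2.9e-05. The difference of Alpk2 lay in the vehicle libraries, at 16.9 ± 4.57 CPM in Th17p against 0.757 ± 0.0952 CPM in iTreg cells (SD). With DFMO its levels were 2.62 ± 0.603 and 2.32 ± 1.61 CPM and overlapped. The Ramp3 and Tgm2 values again include the 2 and 15 counts of the DFMO iTreg group. Gcnt2 (0.14 ± 0.59), Pdpn (0.07 ± 0.54), C3 (0.16 ± 0.39) and Pdzk1ip1 (0.19 ± 0.17) did not pass (edgeR adjusted p from 0.39 to 0.93). For Gcnt2, Pdpn and C3 this average joins vehicle libraries in which Th17p was the higher lineage with DFMO libraries in which iTreg was.

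**Figure D3:**
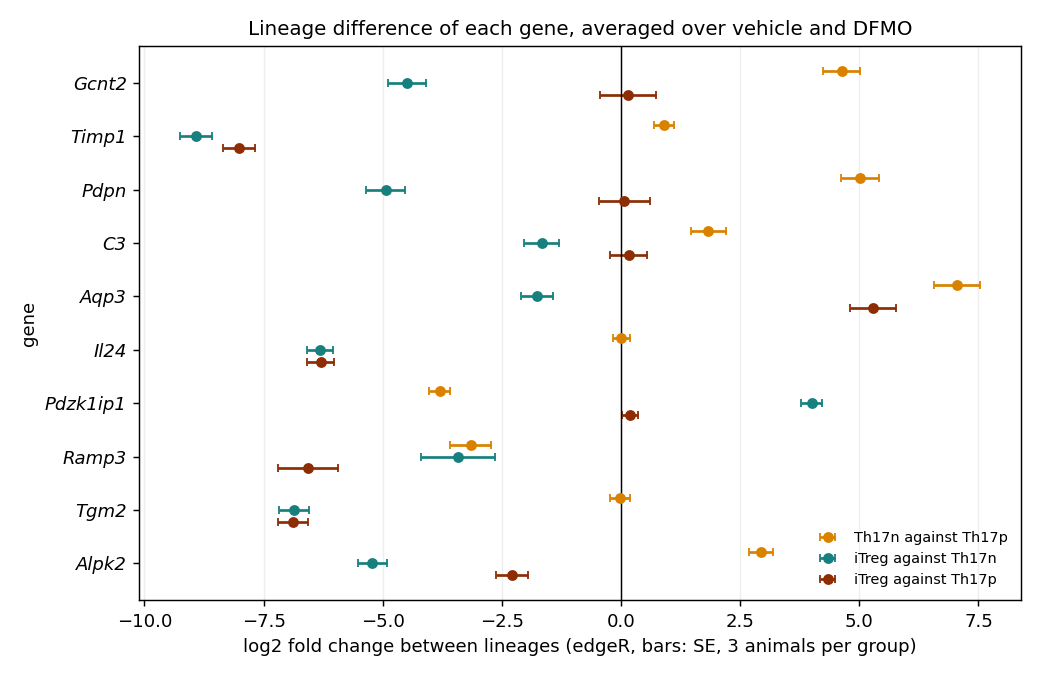
Log2 fold change between lineages for each of the 10 genes, averaged over vehicle and DFMO, with bars for the SE of the edgeR fit (n = 3 animals per group). Aqp3, Pdpn and Gcnt2 lie furthest to the right for Th17n against Th17p, and Timp1 furthest to the left for iTreg against both Th17 lineages.

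By level, the genes fell into a few orders. Gcnt2 and Pdpn ran from DFMO Th17n (73.0 ± 11.8 and 139 ± 10.9 CPM, SD) over vehicle Th17n to DFMO iTreg and vehicle Th17p, which overlapped, and then to DFMO Th17p and vehicle iTreg, which overlapped too. Aqp3 also peaked in DFMO Th17n cells (277 ± 17.0 CPM), but vehicle iTreg cells (30.5 ± 21.02 CPM) stood above both Th17p groups. Timp1, Il24 and Tgm2 peaked in vehicle Th17n and vehicle Th17p cells, which overlapped for each of them, and had both iTreg groups at the bottom. Ramp3 peaked in DFMO Th17p cells (87.7 ± 16.4 CPM) and its vehicle Th17n, DFMO Th17n and vehicle iTreg groups overlapped as neighbours. Pdzk1ip1 was highest in vehicle Th17p (14.8 ± 2.85 CPM), DFMO iTreg and vehicle iTreg cells, which overlapped as neighbours, and lowest in DFMO Th17n cells (0.226 ± 0.048 CPM). C3 peaked in vehicle Th17n cells (13.8 ± 2.14 CPM), and Alpk2 in DFMO Th17n cells (62.9 ± 18.1 CPM), overlapping vehicle Th17n.

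Likeness over the 6 groups was measured as the root mean square distance between group means of log2 CPM (prior count 2), after each gene's own mean was subtracted. Among the 10 genes Gcnt2 and Pdpn were the closest pair (0.87), then Timp1 and Il24 (1.11) and Pdpn and Alpk2 (1.22). Of 11021 other genes, Maf, a bZIP transcription factor gene, was nearest to Pdpn (0.55) and also to Gcnt2 (1.25). With vehicle and then DFMO, Maf averaged 3.71 and 2.12 CPM in Th17p, 49.6 and 70.5 CPM in Th17n, and 0.703 and 3.82 CPM in iTreg cells. Nearest to Timp1 was the Th17 cytokine gene Il17f (0.69), which averaged 1419.97 and 159.9 CPM in Th17p, 740.3 and 652 CPM in Th17n, and 1.36 and 7.04 CPM in iTreg cells. The others nearest were the chemokine receptor Cxcr5 for C3 (0.55), cathepsin W (Ctsw) for Aqp3 (1.005), uridine phosphorylase Upp1 for Il24 (0.90), and Trim12a for Pdzk1ip1 (0.64). S100a6, a calcium-binding protein, was nearest to Ramp3 (0.99), the surface antigen Ly6a to Tgm2 (0.90) and the serine protease Prss46 to Alpk2 (0.67). The nearest gene did not always share the DFMO direction. S100a6 went from 44.6 to 20.7 CPM in Th17p cells, where Ramp3 was higher with DFMO. Prss46 went from 6.58 to 3.22 CPM in Th17n, Trim12a from 28.0 to 14.4 CPM in iTreg and Upp1 from 0.332 to 0.304 CPM in iTreg cells, each unlike its gene. Means of Maf, Il17f, Cxcr5, Ctsw and Ly6a moved with their genes in every lineage. Since responses chose the 10 genes, and all groups share these libraries, the distances are descriptions over 6 points.

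Relatives of the 10 genes were counted over 10 lists, from which the 10 genes themselves were left out. Of the 53 relatives tested, 9 rose and 9 fell with DFMO in Th17p cells (34%), against 32.9% of all genes called, 15.9% higher and 17.1% lower. In Th17n cells 12 rose and 13 fell (47.2%), against 46.4% of all genes, 22.8% higher and 23.7% lower. In iTreg cells 9 rose and 7 fell (30.2%), against 37.6% of all genes, 18.3% higher and 19.2% lower. Calls are at an edgeR adjusted p under 0.05.

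The calcitonin receptor family, to which Ramp3 belongs, had 4 tested relatives, of which 2 rose and 1 fell in Th17p, 2 fell in Th17n and 3 rose in iTreg cells (32.9%, 46.4% and 37.6% of all genes were called). Adm encodes adrenomedullin, a peptide ligand of the receptor that Ramp3 helps to form. It averaged 8.37 ± 1.42 CPM in vehicle and 1.03 ± 0.339 CPM in DFMO Th17n cells, and 10.1 ± 3.04 against 33.4 ± 9.04 CPM in iTreg cells (SD). It fell by 3.03 ± 0.37 in Th17n cells (SE, edgeR adjusted p = 1.1e-06) and rose by 1.72 ± 0.29 in iTreg cells (edgeR adjusted p = 7.9e-05), and these 2 responses differed (-4.75 ± 0.47, edgeR adjusted p = 2.3e-06, where 12.1% of all genes passed). In Th17p cells Adm was at -0.998 ± 0.34, a call lost in 5 of 13 alternatives. Calcrl, the receptor subunit, rose by 0.88 ± 0.15 in iTreg cells, and by 0.61 ± 0.15 in Th17p cells (lost in 1 of 13 alternatives). Ramp1, the partner that makes the CGRP receptor, fell by 1.58 ± 0.33 in Th17n cells, from 56.3 ± 7.10 to 18.8 ± 2.74 CPM (SD). So in DFMO iTreg cells ligand and receptor RNA were higher while Ramp3 RNA was nearly absent, and in DFMO Th17p cells Calcrl and Ramp3 were both higher.

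Of the transglutaminases, 2 relatives of Tgm2 were tested. Tgm1, the keratinocyte enzyme, averaged 14.0 ± 4.03 CPM with vehicle and 1.44 ± 0.197 CPM with DFMO in Th17p cells, and 52.3 ± 18.4 against 5.39 ± 0.236 CPM in Th17n cells (SD). It fell by 3.26 ± 0.32 in Th17p (SE, edgeR adjusted p = 2.2e-07) and by 3.27 ± 0.28 in Th17n cells (edgeR adjusted p = 1e-08). In iTreg cells it averaged 0.700 ± 0.391 CPM with vehicle and 0.783 ± 0.279 CPM with DFMO (SD). Its responses in both Th17 lineages differed from that in iTreg cells (-3.40 ± 0.59 and -3.41 ± 0.56, edgeR adjusted p = 0.0011 and 0.00057), in each of 13 alternatives. Both Tgm1 and Tgm2 were thus lower with DFMO in Th17 cells, and in iTreg cells Tgm1 was near absence in both treatments.

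The IL-10 family had 6 tested relatives of Il24. Il10, which lies 132 kb from Il24, averaged 2.39 ± 0.938 CPM in vehicle and 18.8 ± 7.82 CPM in DFMO Th17n cells (SD), a rise of 2.98 ± 0.54 (SE, edgeR adjusted p = 0.00019). The Th17n response differed from that in Th17p cells (4.80 ± 0.87, edgeR adjusted p = 0.0039, where 4.98% of all genes passed), but not without animal 2 (3.28, adjusted p = 0.18). In iTreg cells it had no count with vehicle and averaged 0.0582 CPM with DFMO, so no fold is given. In Th17n cells Il10 and Il24, family members on the same chromosome, were therefore higher and lower with DFMO. Il10ra, a chain of the IL-10 receptor, fell by 1.72 ± 0.27 in Th17p cells (edgeR adjusted p = 9.6e-05). In iTreg cells it was at -0.97 ± 0.28 (edgeR adjusted p = 0.011), a call lost in 2 of 13 alternatives. The mean of Il10ra was lower with DFMO in Th17n cells too, at 37.1 ± 4.91 CPM with vehicle and 7.37 ± 2.25 CPM with DFMO (SD).

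Among complement genes, 6 relatives of C3 were tested. Cd93, a surface glycoprotein once described as a C1q receptor, fell by 4.33 ± 0.62 in Th17p cells (SE, edgeR adjusted p = 1.8e-05), from 10.2 ± 4.46 to 0.506 ± 0.142 CPM (SD). Cr1l (Crry), the rodent regulator that protects cells from C3 convertase, was at 0.50 ± 0.13 in Th17p and 0.59 ± 0.13 in iTreg cells, each call lost in 1 of 13 alternatives. Its mean was also higher with DFMO in Th17n cells, at 36.2 ± 3.16 CPM with vehicle and 66.3 ± 5.82 CPM with DFMO (SD). Of 12 tested metalloproteinases and inhibitors, 2 rose and 1 fell in Th17p, 3 rose and 2 fell in Th17n, and 1 rose and 1 fell in iTreg cells (32.9%, 46.4% and 37.6% of all genes were called). Adam19, a membrane protease, was at -0.67 ± 0.17 in Th17p (lost in 1 of 13 alternatives) and 0.42 ± 0.15 in iTreg cells (lost in 7). The difference of these responses (-1.08 ± 0.23, edgeR adjusted p = 0.0063) was lost in 4 of 13 alternatives.

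Of 6 tested partners of podoplanin, Cd9, a tetraspanin, fell by 1.60 ± 0.17 in iTreg cells (SE, edgeR adjusted p = 6e-07), from 68.9 ± 8.13 to 22.8 ± 4.60 CPM (SD). This response differed from that in Th17p cells (1.85 ± 0.23 for Th17p minus iTreg, edgeR adjusted p = 0.00012, where 6.85% of all genes passed). Lgals8, a galectin that binds podoplanin, fell by 1.005 ± 0.21 in iTreg cells. It was at -0.63 ± 0.22 in Th17p and -0.58 ± 0.22 in Th17n cells, calls lost in 3 and 6 of 13 alternatives. Rdx, the membrane linker radixin, rose by 0.58 ± 0.07 in Th17n cells. The 9 tested branching enzymes other than Gcnt2 included Mgat4a, an N-glycan branching enzyme, which rose by 1.198 ± 0.11 in Th17n and 0.92 ± 0.11 in iTreg cells (edgeR adjusted p = 1.4e-08 and 8.7e-07). Mgat5 rose by 1.25 ± 0.26 in Th17p cells, and Gcnt4, an O-glycan branching enzyme, fell by 2.48 ± 0.62 in Th17n cells.

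Few other aquaporins or PDZ scaffolds were tested. Of 3 aquaporins Aqp9, which also carries glycerol, was at -1.99 ± 0.67 in Th17p cells (edgeR adjusted p = 0.028), a call lost in 2 of 13 alternatives. Of 2 scaffolds Pdzk1, the partner of MAP17, was at 1.86 ± 0.51 in Th17n cells (edgeR adjusted p = 0.0047, lost in 3 of 13 alternatives), from 0.596 ± 0.258 to 2.25 ± 1.06 CPM (SD). Of 3 alpha kinases besides Alpk2, Eef2k, the kinase that inhibits elongation factor 2, fell by 0.74 ± 0.16 in Th17p cells (SE, edgeR adjusted p = 0.0011). In Th17n cells it was at -0.55 ± 0.15 (lost in 1 of 13 alternatives) and in iTreg cells at 0.48 ± 0.15 (lost in 7). The difference between the Th17p and iTreg responses of Eef2k (-1.22 ± 0.22, edgeR adjusted p = 0.0017) was kept in all 13 alternatives. Of 17 tested genes of polyamine metabolism, 8 rose and 4 fell in Th17p, 8 rose and 4 fell in Th17n, and 6 rose and 5 fell in iTreg cells, where 32.9%, 46.4% and 37.6% of all genes were called.

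**Figure D4:**
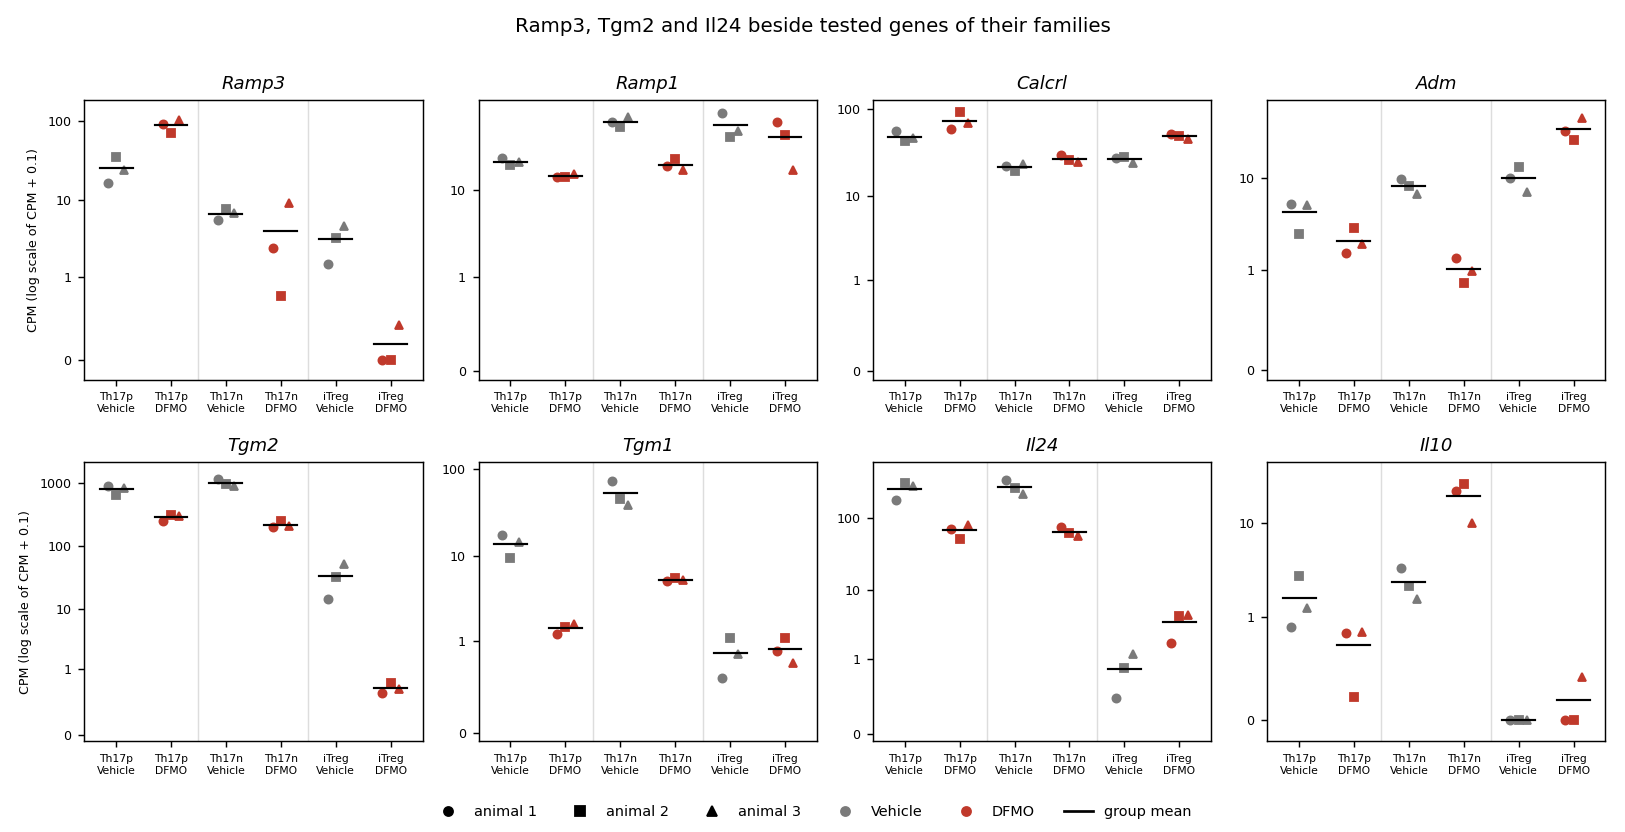
CPM (log scale of CPM + 0.1) in the 18 libraries for Ramp3, Tgm2 and Il24 and for tested genes of their families, drawn with the same colours, symbols and bars as the plot of all 10 genes. Adm lies lower with DFMO in Th17n and higher in iTreg cells, Tgm1 lower in both Th17 lineages, and Il10 higher in Th17n cells.

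The nearest tested gene on each side of the 10 on the chromosome was also examined. Genes that were not tested can lie between. Distances ran from 6.50 kb (Gpr108 from C3) to 2316 kb (Hus1 from Ramp3), with Efcab14 at 644 kb from Pdzk1ip1. Of these 20 neighbours, 3 rose and 3 fell with DFMO in Th17p (30%), 9 rose and 3 fell in Th17n (60%) and 9 rose and 1 fell in iTreg cells (50%), where 32.9%, 46.4% and 37.6% of all genes were called. Pigr, which encodes the transporter of polymeric immunoglobulins and lies 29.8 kb from Il24, rose by 4.10 in Th17n and 2.93 in iTreg cells (edgeR adjusted p = 4.3e-06 and 7.8e-06). In Th17p cells its value of 3.37 lost its call in 6 of 12 alternatives. Tfap2a, a transcription factor gene 121 kb from Gcnt2, rose by 4.39 in Th17n and 4.78 in iTreg cells (edgeR adjusted p = 2.6e-06 and 7.1e-06), and in Th17p cells, where Gcnt2 was lower with DFMO, it was at 1.41 (adjusted p = 0.38). Nol6, a ribosome biogenesis gene 16.2 kb from Aqp3, rose by 0.70, 1.04 and 1.19 in Th17p, Th17n and iTreg cells. Nedd4l, a ubiquitin ligase gene 47.7 kb from Alpk2, fell by 1.39 in iTreg cells, where the group mean of Alpk2 was higher with DFMO. In Th17p cells, where Alpk2 was lower, Nedd4l was at -0.88 (adjusted p = 0.014, lost in 3 of 13 alternatives). Tnfsf14, 9.79 kb from C3, had the signs of C3, at -0.47, -0.94 and 0.42 in Th17p, Th17n and iTreg cells. Its Th17p and iTreg calls were lost in 2 and 8 of 13 alternatives. Pigr, Tfap2a, Nol6, Nedd4l and Tnfsf14 were chosen after their values were seen.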

How the data were processed

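The 36 samples are 2 sequencing runs of each of 18 RNA libraries. Per the submitters' processing notes, Bowtie2 and RSEM were used with the build GRCm38.p3, and the sources used here give no version, annotation or strand setting. The authors deposited expected counts (estimated reads per gene and run, not normalized), of which 12.2% are not whole. The second deposited table holds TPM (length-scaled shares, per run), and the listed genes cover 72.4% to 80.5% of the full scale. Every sample column of the tables was matched to a sample by its title.

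Runs of a library differed little (chi-square per degree of freedom 1.15 to 1.54, against 3.64 to 12.1 between animals), so expected counts were summed over runs and rounded, and TPM were averaged. Expected counts of the 18 libraries were fitted in edgeR 4.0.16 (R 4.3.3) with TMM scaling, the default filter by group, 1 mean per group and a robust quasi-likelihood test, two-sided, adjusted by Benjamini-Hochberg over 11526 genes with a threshold of 0.05. SE was taken from the log2 fold change and the square root of the F statistic. Group means and SD of CPM are over 3 animals. The tests were also tried on data simulated from the means and dispersions of these libraries. Depth of 8307662 to 13986943 counts sets the precision of low genes, and reads carry no molecular identifiers. Positions are from GENCODE M21 on GRCm38.

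The 10 genes, the gene lists (11 families, 9 marker sets) and the comparisons were chosen with earlier results of these data known. Named genes are the 10, up to 2 called relatives per list and comparison with the largest fold change (of which the text gives a part), the nearest pattern of each gene, and the leading genes of marker lists.

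The animal number in the labels pairs libraries: libraries of 1 animal deviated together from their group means (median r 0.121 in 45 pairs). For different animals the median was -0.063 in 90 pairs. That value is tied to the first, since deviations sum to 0 within a group, and nothing is read from it. The fit has no block, and a fit with the replicate block was an alternative. Others were DESeq2 size factors, no scaling, no filter, DESeq2 1.42.0, limma 3.58.1 on log2(TPM + 1) and log2(TPM + 0.1), leaving out each animal, each run alone, and fits of the compared groups alone.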

Additional observations from a re-analysis of the deposited data

Results flagged for a closer look

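DFMO responses pointed in opposite directions in all animals of a pair of lineages for 9 of the 10 genes. Of all genes tested, 5.61% did so for Th17p and iTreg, 5.81% for Th17n and iTreg, and 3.13% for the Th17 lineages. Those shares are for single pairs, and nothing is read from the count since the responses chose the genes. As Th17p minus iTreg on the log2 scale, the difference was -8.43 for Gcnt2, -6.17 for Timp1, -5.02 for Pdpn, -5.34 for C3, -5.07 for Aqp3 and 7.22 for Ramp3. As Th17n minus iTreg it was -4.36 for Il24 and -3.76 for Pdzk1ip1, and as Th17n minus Th17p it was 3.27 for Alpk2. These differences were not tested, since they chose the genes.

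Among the 53 relatives tested, the test of the difference itself (edgeR quasi-likelihood, Benjamini-Hochberg adjusted over all genes) passed for 4 for Th17n minus Th17p (7.55%, against 4.98% of all genes), 10 for Th17n minus iTreg (18.9%, against 12.1%) and 9 for Th17p minus iTreg (17%, against 6.85%). A relative can count in more than 1 of these, and each one is given here once, by its largest difference. For Th17n minus iTreg, Adm was at -4.75 (adjusted p = 2.3e-06) and Tgm1 at -3.41 (adjusted p = 0.00057), both kept in 13 of 13 alternatives. Gcnt4 was at -3.06 (adjusted p = 0.023) and Rdx at 0.44 (adjusted p = 0.0083), each lost in 2 alternatives, and Il10ra at -1.35 (adjusted p = 0.033), lost in 5. Gcnt4 lost its call without animal 1 and without animal 2, and Rdx without animal 2 and without animal 3. For Th17p minus iTreg, Cd9 was at 1.85 (adjusted p = 0.00012) and Eef2k at -1.22 (adjusted p = 0.0017), both kept in 13 alternatives. Cd93 was at -5.73 (adjusted p = 0.0011), lost without animal 2 (-4.65, adjusted p = 0.14), and Adam19 at -1.08 (adjusted p = 0.0063), lost in 4 alternatives, without animal 1 and animal 2 among them. The iTreg side of the Cd93 difference rests on few reads, with 7 counts in all with vehicle and 19 with DFMO. For Th17n minus Th17p, Mgat4a was at 1.06 (adjusted p = 0.0005), lost without animal 2 (0.93, adjusted p = 0.053), and Il10 at 4.80 (adjusted p = 0.0039), lost without animal 2 (3.28, adjusted p = 0.18). Ezr was at 0.62 for Th17p minus iTreg (adjusted p = 0.0012), lost without animal 3 (0.52, adjusted p = 0.062), and Msn at -0.43 for the same difference (adjusted p = 0.022), lost in 6 alternatives, among them each animal left out. Adam10 was at 0.44 for Th17n minus iTreg (adjusted p = 0.022), lost in 4 alternatives, among them each animal left out. Ezr, Msn and Adam10 fall outside the rule for named genes and are given because they passed.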

How the results depend on the processing

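Between the Th17 lineages 3079 genes were called, and 1715 to 2270 without 1 animal. With DFMO 3797 were called in Th17p (2416 to 2632 without 1 animal) and 4329 in iTreg cells (2488 to 3643). For response differences, 574 were called for Th17n minus Th17p (27 to 331 without 1 animal, and 382 on log2(TPM + 0.1)). For Th17n minus iTreg 1396 were called (277 to 1177 without 1 animal, 2563 on log2(TPM + 1) and 2463 on log2(TPM + 0.1)). For Th17p minus iTreg 789 were called (107 to 564 without 1 animal, 1330 on log2(TPM + 1)), and with the replicate block 1237. The replicate block changed no call of the 10 genes between lineages.

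Scaling moved the split of calls. On log2(TPM + 1) it was 2161 higher and 402 lower for Th17n minus iTreg, against 628 and 768, and 1014 and 316 for Th17p minus iTreg, against 383 and 406. Without scaling factors it was 1509 and 450, and 678 and 261. With DFMO in iTreg cells it was 1024 and 3439 on log2(TPM + 1), and between the Th17 lineages 927 and 2294, against 1465 and 1614.

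Of the 10 genes between lineages, 373 values kept direction and call, 3 lost the call (Timp1 and Ramp3, given above) and 14 of uncalled genes changed sign. For Th17n minus Th17p, Il24 was at -0.032 without scaling factors, -0.070 on log2(TPM + 1), -0.071 on log2(TPM + 0.1), and -0.22 to 0.23 without 1 animal, and Tgm2 at -0.099 to 0.079 without 1 animal. For iTreg minus Th17p, C3 was at -0.10 on log2(TPM + 1), -0.16 to 0.81 without 1 animal and -0.052 in run 2, Gcnt2 at -0.067 on log2(TPM + 0.1), -1.23 to 0.52 without 1 animal and -0.16 in run 1, and Pdpn at -0.042 on log2(TPM + 0.1), -0.0055 to 0.20 without 1 animal and -0.16 in run 2. The cause was not tested. Groups with under 10 counts of a gene, as Ramp3 in DFMO iTreg and Pdzk1ip1 in DFMO Th17n cells, limit the size of its fold change.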
